A study of Danio rerio with 17 samples.

Results

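Genes known as regulators or products of visceral smooth muscle, the muscle of the gut wall, were followed in RNA sequencing of sorted zebrafish cells. The 6 genes, rbpms2a, rbpms2b, nkx3.3, nkx2.3, barx1 and desmb, were chosen by gene symbol from a table of 30220 genes, and each was found once and passed the filter on low values in every comparison. The cells came from 3 transgenic lines and gave 17 libraries in 6 groups. The Tg(acta2:egfp) line, in which the promoter of the smooth muscle actin gene acta2 drives green fluorescent protein, gave 3 acta2 positive (mural) and 3 acta2 negative (non-mural) libraries at 4 days post fertilization. The Tg(acta2:mcherry);(foxc1b:egfp) line, which also reports the forkhead gene foxc1b, gave 2 acta2/foxc1b positive and 3 acta2/foxc1b negative libraries at the same age, and the labels do not state which colors its gate used. The Tg(kdrl:mcherry) line, in which the promoter of a VEGF receptor gene of endothelium drives the reporter, gave 3 kdrl positive (endothelial) and 3 kdrl negative (non-endothelial) libraries at 5 days. Those cells were fixed before the sort and made into libraries with another kit, and their values were scaled apart from the rest, so their levels are not set beside those of the acta2 lines. All libraries carry the same vascular smooth muscle label for tissue, whereas an acta2 promoter is also used by smooth muscle of the gut. The labels do not say that replicates came from separate clutches, so a p-value reflects how far these libraries scattered, and that scatter may be technical.

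Visceral smooth muscle forms a sheath around the gut from mesoderm that first takes on a gut mesenchyme identity and then switches on contractile genes under serum response factor and its myocardin-family partners. RBPMS2, whose zebrafish copies are rbpms2a and rbpms2b, is an RNA-binding protein that holds visceral smooth muscle precursors in an immature state in the chick, and it is also known from heart muscle and retinal ganglion cells. The NK homeobox genes nkx2.3 and nkx3.3 and the homeobox gene barx1 encode transcription factors. In the mouse, NKX2-3 acts in gut and spleen mesenchyme and BARX1 in stomach mesenchyme, while zebrafish barx1 is also known from the cartilage of the pharyngeal arches. The gene desmb encodes a desmin, the intermediate filament protein of muscle, and its copy desma is known from skeletal and heart muscle. In the RefSeq annotation of assembly GRCz12tu, nkx2.3 and nkx3.3 lie on the same chromosome with 0 annotated genes between them.

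Libraries held 10474235 to 40868765 reads recovered from the deposited values, and 23590 to 29445 genes had at least 1 read. The acta2 transcript itself rose with its reporter in both acta2 lines, by log2 fold changes of 7.46 (adjusted p = 2.81e-05) and 9.02 (adjusted p = 0.0272) in limma, and did not pass the test in the kdrl line (log2 fold change 0.03, adjusted p = 0.984). The other reporter gene, foxc1b, passed in neither acta2 line in limma, at 2.07 (limma adjusted p = 0.3) with its reporter and -1.46 (limma adjusted p = 0.129) in the acta2 line. With its reporter, each positive library lay above each negative one, as for 14.8% of tested genes. The authors' deposited table has foxc1b higher there (1.57, adjusted p = 0.0285). Of the mural genes, pdgfrb, the PDGF receptor gene of mural cells, was present in all acta2 positive libraries, at 151.7 to 516.1 normalized read counts against 56.4 to 117.4 in acta2 negative libraries. Such a separation held for 15.1% of all genes tested in this line. In limma pdgfrb was not called in the acta2 line (log2 fold change 1.72, adjusted p = 0.0906) or the acta2/foxc1b line (4.52, adjusted p = 0.248). In the acta2 lines a pair of libraries stood apart from their replicates. In acta2/foxc1b negative replicate 2, 12 liver and exocrine pancreas genes summed to 1437150 normalized read counts, against 20736 and 27931 in the other acta2/foxc1b negative libraries, and the keratin gene krt4 alone reached 1349390. In acta2 positive replicate 2, 15 intestinal epithelium genes summed to 9446 normalized read counts, against 2810 and 1950 in its replicates. For each acta2 line the calls without its library of this pair are given beside the main ones. In the kdrl line, the same intestinal epithelium genes summed to 11870 normalized read counts in negative replicate 3, against 2664 and 4787 in its replicates.

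**Figure D1:**
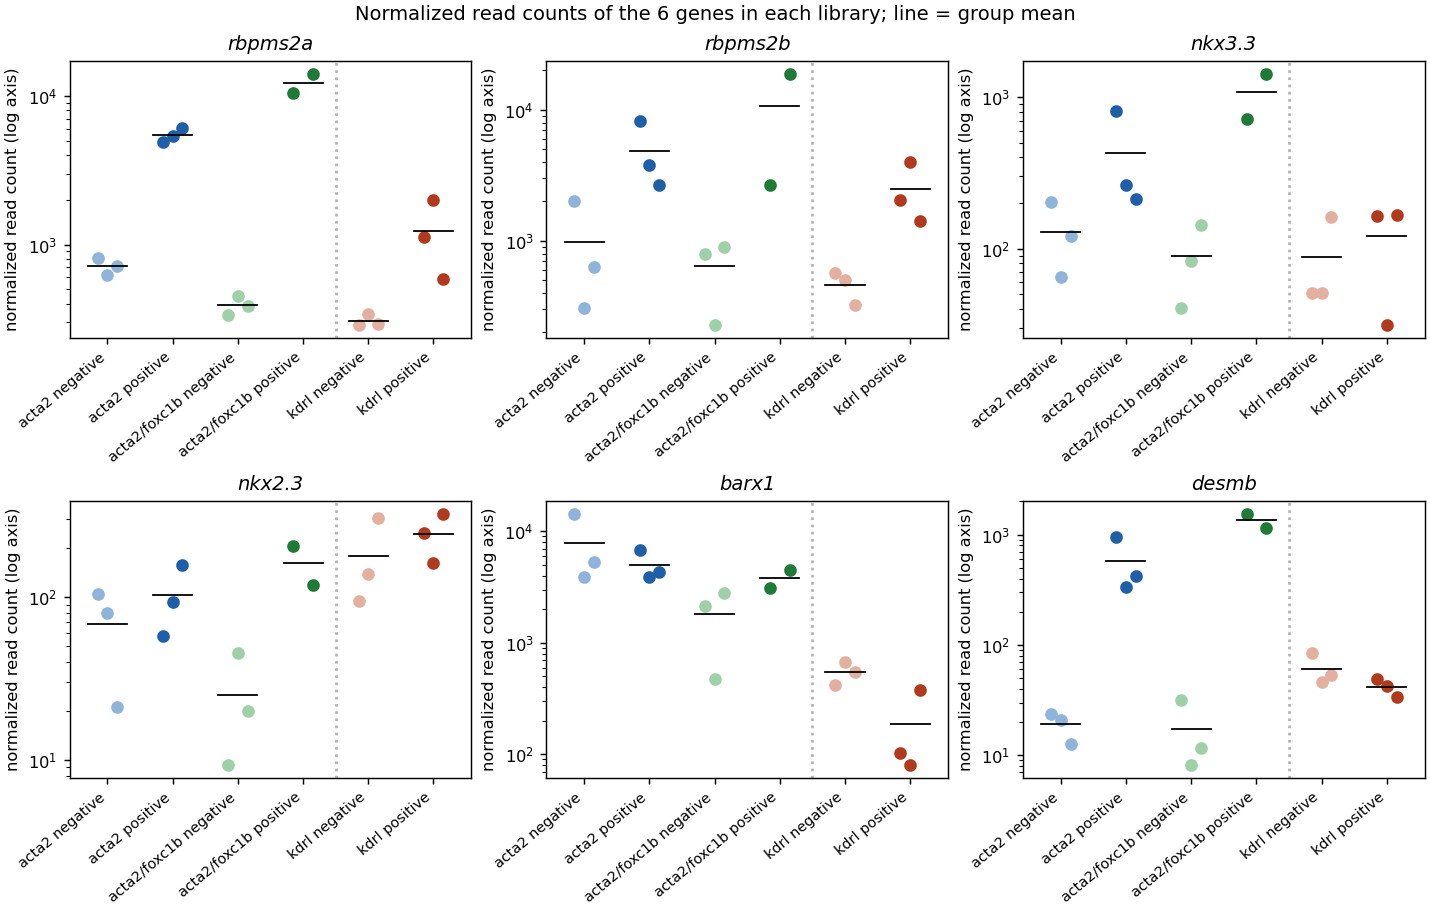
Normalized read counts (log axis) of the 6 genes in every library of the 6 sorted groups, with a line at each group mean; the dotted line divides the acta2 lines from the separately scaled kdrl line. For desmb, the acta2 positive libraries lie between 338.2 and 955.5 and the acta2 negative libraries between 12.7 and 23.7, whereas barx1 overlaps between these groups.

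The acta2 positive libraries were set against the acta2 negative ones to see which of the 6 genes went with the acta2 sort. The desmin gene desmb and both rbpms2 genes were higher in acta2 positive cells. Of the 6 genes, 3 were called higher at an adjusted p under 0.05 in limma, where 3.26% of 20582 tested genes were called higher and 3.75% lower. In 4 of the 6, desmb, rbpms2a, rbpms2b and nkx3.3, each positive library lay above each negative one, which held for 15.1% of all tested genes. Without acta2 positive replicate 2, 2 of the 6 were called, desmb and rbpms2a, where 1.99% of 21431 genes were called higher and 4.33% lower. Reads of mt-rnr2, a ribosomal RNA gene of mitochondria, made up 16.3, 9.35 and 9.45% of acta2 positive and 1.23, 1.42 and 3.86% of acta2 negative libraries, and its part in these results was not tested. In bulk libraries, a higher share of expressing cells and more RNA per cell cannot be told apart.

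The desmin gene desmb stood at 955.5, 338.2 and 424.9 normalized read counts in acta2 positive replicates 1 to 3 and at 23.7, 21.0 and 12.7 in acta2 negative replicates 1 to 3. The lowest positive library was thus far above the highest negative one. The means were 573 ± 334 (SD, n = 3) and 19.1 ± 5.73 (SD, n = 3). On the scale of log2(value + 1), whose back-transformed folds are given here and below, the log2 fold change was 4.73, or 26.5-fold (SE 0.53, 95% interval 3.53 to 5.93, limma adjusted p = 0.00462). The copy desma went the other way in direction without passing the test, at 334.7 to 595.9 normalized read counts in positive and 572.4 to 1981 in negative libraries (log2 fold change -1.08, limma adjusted p = 0.234).

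The RNA-binding protein gene rbpms2a was the most even of the 6 between replicates of this line. It reached 4871, 5381 and 6066 normalized read counts in acta2 positive libraries and 812.6, 620.3 and 713.4 in acta2 negative libraries. Its means were 5439 ± 599 (SD, n = 3) and 715 ± 96.2 (SD, n = 3), and the log2 fold change was 2.93, or 7.61-fold (SE 0.26, 95% interval 2.33 to 3.52, limma adjusted p = 0.00196). The call for rbpms2a and that for desmb held when acta2 positive replicate 2 was left out, at limma adjusted p of 0.00263 and 0.00293.

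The other copy, rbpms2b, varied more between replicates and lay at the edge of the threshold. Its values were 8158, 3770 and 2666 normalized read counts in acta2 positive and 2002, 309.4 and 629.8 in acta2 negative libraries, so that the groups were separate but the highest negative library came close to the lowest positive one. The log2 fold change was 2.57 (SE 0.66, 95% interval 1.09 to 4.05), 5.94-fold, with a limma adjusted p of 0.0493. The call was lost in edgeR (adjusted p = 0.0833), with no filter on low values (adjusted p = 0.0504) and when any library other than acta2 negative replicate 1 was left out, with adjusted p of 0.0698 to 0.152. How reads that match both rbpms2 copies were assigned is not given in the sources used here, so the split between them is uncertain, as it is for desma and desmb.

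Of the homeobox genes, nkx3.3 had 805.3, 264.9 and 213.0 normalized read counts in acta2 positive and 202.9, 65.3 and 120.7 in acta2 negative libraries. The groups did not overlap, by a narrow margin, and the log2 fold change of 1.60 (SE 0.60) did not pass in limma (adjusted p = 0.145), whereas it passed in DESeq2 at 1.72 (adjusted p = 0.0459), a tool that called 6.47% of the genes higher. Without acta2 positive replicate 2 its limma value was 1.82 (adjusted p = 0.16). For nkx2.3, values of 57.9, 93.0 and 156.3 in positive libraries overlapped those of 103.7, 79.3 and 21.1 in negative libraries (log2 fold change 0.74, SE 0.69, limma adjusted p = 0.552; 0.75, adjusted p = 0.629, without acta2 positive replicate 2).

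The homeobox gene barx1 showed no call in either direction. It was abundant in both populations, at 6837, 3903 and 4350 normalized read counts in acta2 positive and 14390, 3883 and 5355 in acta2 negative libraries. The log2 fold change was -0.46 (SE 0.48, 95% interval -1.54 to 0.63, limma adjusted p = 0.603), and it became 0.10 without acta2 negative replicate 1, the highest library, and -0.29 (limma adjusted p = 0.797) without acta2 positive replicate 2. Of 16 genes of the pharyngeal arches and cartilage, where zebrafish barx1 is also known, 4 were higher and 1 was lower in acta2 positive cells, among them the cartilage proteoglycan gene acana (log2 fold change 3.34, limma adjusted p = 0.00203) and the thyroid and pharynx factor foxe1 (-4.25, limma adjusted p = 0.0429). Of all tested genes 3.26% were called higher and 3.75% lower. Without acta2 positive replicate 2, 2 of the list were higher and 1 was lower, where 1.99% and 4.33% of all tested genes were. The summed level of these 16 genes was 96950 to 205697 normalized read counts in positive and 50061 to 92283 in negative libraries; their part in the barx1 values was not tested.

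**Figure D2:**
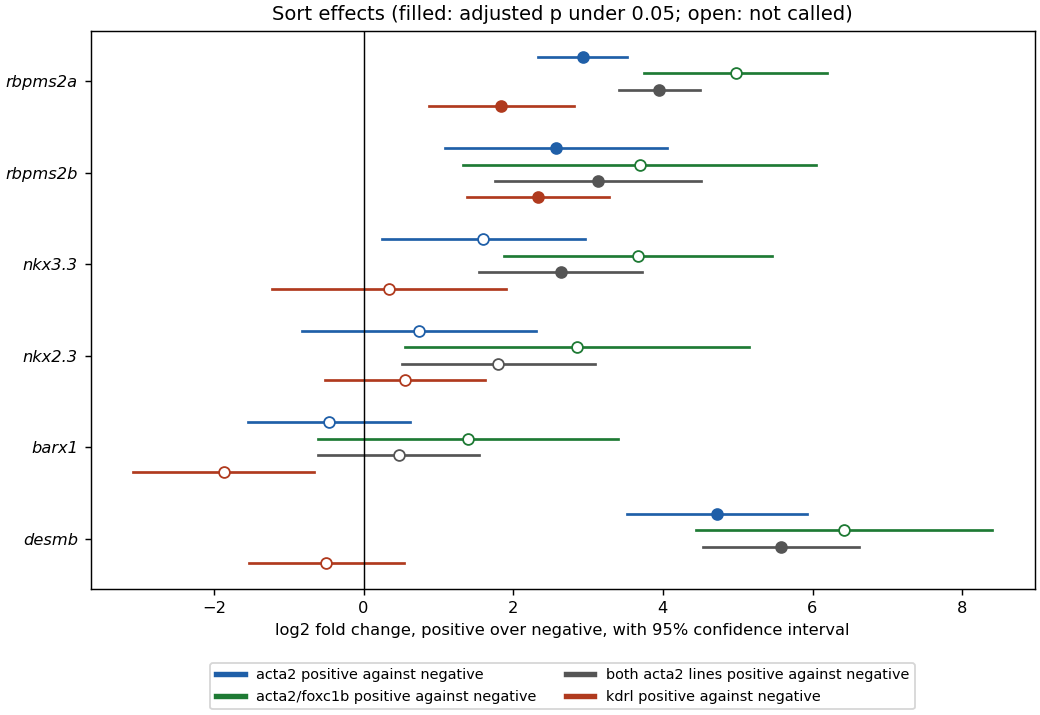
Log2 fold change of each gene, positive over negative cells, with its 95% confidence interval, in the acta2 line, the acta2/foxc1b line, both acta2 lines together and the kdrl line; filled points passed an adjusted p under 0.05. For desmb the acta2 effect of 4.73 lies above 0, while the kdrl effect of -0.50 was not called and its interval of -1.54 to 0.54 includes 0. Both rbpms2 genes are filled in the acta2 and kdrl lines.

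In the acta2/foxc1b line all 6 genes had higher values in every positive library than in every negative one, which held for 14.8% of 22116 tested genes. None of the 6 was called in limma, where 0.0271% of the genes were called higher, 6 in all, and 0 were called lower. The limma value of rbpms2a was near the threshold and passed it with a pseudocount of 10 (adjusted p = 0.0469), with no filter (adjusted p = 0.0463), after quantile normalization (adjusted p = 0.0214) and with the replicate block (adjusted p = 0.00669); in all, 6 of 11 alternatives called it and 4 of 11 called desmb. At an unadjusted p under 0.05 there were 2532 genes, 5 of the 6 among them. No gene of the table was called in edgeR, whereas DESeq2 called 643 higher and 1049 lower, 4 of the 6 among the former (2.91% of tested genes), and limma after quantile normalization called 54 higher and 40 lower.

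The values of desmb were 1547 and 1146 normalized read counts in acta2/foxc1b positive and 31.7, 8.13 and 11.6 in negative libraries. The log2 fold change was 6.42, or 85.6-fold (SE 0.84, limma adjusted p = 0.0707). For rbpms2a, 10417 and 14160 stood against 333.5, 447.2 and 385.0, a log2 fold change of 4.97 (SE 0.52, limma adjusted p = 0.0663). Both were separated from the negative libraries by more than the range within either group.

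The positive libraries differed most from each other in rbpms2b, at 2647 and 18885 normalized read counts, against 800.1, 227.7 and 897.4 in negative libraries (log2 fold change 3.69, 95% interval 1.33 to 6.05, limma adjusted p = 0.227). For nkx3.3, 720.7 and 1426 stood against 41.0, 82.9 and 144.3 (3.66, SE 0.76, limma adjusted p = 0.141). For nkx2.3, 204.9 and 117.8 stood against 9.29, 45.5 and 20.1 (2.86, SE 0.97, limma adjusted p = 0.331). The values of barx1 were 3085 and 4487 against 2154, 470.0 and 2792, so that the gap between the groups was small (1.39, SE 0.85, limma adjusted p = 0.626).

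Without acta2/foxc1b negative replicate 2, limma called 335 genes higher, 1.55% of 21677, and 439 lower, 2.03%. Of the 6 genes, 3 were then called higher. These were rbpms2a (log2 fold change 5.08, adjusted p = 0.00816), desmb (6.03, adjusted p = 0.0152) and nkx3.3 (3.70, adjusted p = 0.0487). The other 3 were not called, nkx2.3 at 3.41 (adjusted p = 0.0674), rbpms2b at 3.06 (adjusted p = 0.111) and barx1 at 0.60 (adjusted p = 0.485).

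In the authors' deposited table, 5.17% of genes with an adjusted p were higher at under 0.05 in the acta2/foxc1b line, and 5 of the 6 genes were among them. The authors' deposited table gives desmb a log2 fold change of 5.45 (adjusted p = 2.4e-15), rbpms2a 4.75 (adjusted p = 5.71e-33), nkx3.3 3.03 (adjusted p = 0.00025), rbpms2b 3.19 (adjusted p = 0.000782) and nkx2.3 2.12 (adjusted p = 0.0161). For the acta2 line, the authors' deposited table has desmb at 3.76 (adjusted p = 3.44e-11) and rbpms2a at 2.71 (adjusted p = 2.08e-13), a line in which that table has 2.43% of genes higher, with rbpms2b at 1.55 (adjusted p = 0.0904) on the other side of the threshold from limma.

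Both acta2 lines were then fitted together over their 11 libraries, which uses the same libraries again with a shared estimate of the spread. Here 4 of the 6 genes were higher in positive cells, where 4.68% of 23438 tested genes were called higher and 4.62% lower. For these 4, each positive library lay above each negative library of its own line, as for 6.78% of genes. The log2 fold change was 5.57 for desmb (SE 0.48, limma adjusted p = 7.49e-05), 3.95 for rbpms2a (SE 0.25, limma adjusted p = 6.74e-06), 3.13 for rbpms2b (SE 0.63, limma adjusted p = 0.00952) and 2.63 for nkx3.3 (SE 0.50, limma adjusted p = 0.00697). For nkx2.3 it was 1.80 (SE 0.59, limma adjusted p = 0.0805), and for barx1 0.47 (SE 0.50, limma adjusted p = 0.62). Without acta2/foxc1b negative replicate 2, nkx2.3 was called too, at 2.08 (limma adjusted p = 0.0224), and 7.59% of genes were called higher. Without acta2/foxc1b positive replicate 2, the calls of rbpms2b (2.42, limma adjusted p = 0.0701) and nkx3.3 (2.39, limma adjusted p = 0.0537) were lost, and without acta2 positive replicate 2 the same 4 genes were called.

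The sort effects of the 6 genes were numerically larger in the acta2/foxc1b line than in the acta2 line. The difference, acta2 minus acta2/foxc1b, ran from -1.12 for rbpms2b to -2.11 for nkx2.3 on the log2 scale, and none was called in limma. It was -2.05 for rbpms2a (SE 0.50, 95% interval -3.13 to -0.96), the only one of the 6 with an unadjusted p under 0.05 (0.0014; limma adjusted p = 0.378), and DESeq2 called it at -2.06 (adjusted p = 0.0147). None was called in limma without acta2/foxc1b negative replicate 2, with differences from -0.49 to -2.67, or without acta2 positive replicate 2, with differences from -1.02 to -2.10. Across all 23438 genes, 0 passed in limma, with 1169 at an unadjusted p under 0.05, 0 passed in edgeR and 233 in DESeq2.

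The positive populations of these lines were also compared directly, a comparison in which line and gate cannot be told apart. None of the 6 genes passed in limma, edgeR or DESeq2, and rbpms2a alone had an unadjusted p under 0.05, with a log2 difference, acta2/foxc1b positive over acta2 positive, of 1.16 (SE 0.37, 95% interval 0.36 to 1.97, limma adjusted p = 0.419). The differences of desmb, 1.37 (95% interval -0.19 to 2.92), and nkx3.3, 1.503 (95% interval -0.12 to 3.12), had intervals that reached below 0. In this comparison limma called 39 genes higher and 7 lower, 0.166% and 0.0299%, and DESeq2 called 321 higher and 118 lower. None of the 6 was called in limma with either of the libraries that stood apart left out.

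The level of each gene was ordered over the 4 groups of the acta2 lines. For desmb and rbpms2a, acta2/foxc1b positive cells came first, at 1347 ± 284 and 12288 ± 2647 (SD, n = 2), then acta2 positive, acta2 negative and acta2/foxc1b negative cells. The negative groups of desmb, at 19.1 ± 5.73 and 17.2 ± 12.7 (SD, n = 3), did not differ beyond their spread, while those of rbpms2a, at 715 ± 96.2 and 389 ± 56.9 (SD, n = 3), did not overlap. The negative groups were not tested against each other, and the share of all genes separated in this way was not counted. The order was the same for rbpms2b, nkx3.3 and nkx2.3. For each of these 3 the positive groups overlapped each other, as did the negative groups, and acta2 positive and acta2 negative cells overlapped for nkx2.3 only. For barx1 the order was acta2 negative, acta2 positive, acta2/foxc1b positive and acta2/foxc1b negative, with overlap between each group and the next apart from the last pair.

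The endothelial sort of the kdrl line served as a sort for a cell type other than mural cells. Both rbpms2 genes were higher in kdrl positive cells too, 2 of the 6 genes, where 3.17% of 24903 tested genes were called higher. The values of rbpms2b were 2062, 4031 and 1417 normalized read counts in kdrl positive and 563.9, 503.2 and 323.4 in kdrl negative libraries. Every positive library was above every negative one, as for 15.3% of tested genes. The log2 fold change was 2.33 (SE 0.43, 95% interval 1.38 to 3.28, limma adjusted p = 0.0132). The call held with each library of this line left out in turn, at limma adjusted p of 0.00541 to 0.0437.

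For rbpms2a, 1129, 2004 and 583.6 stood against 286.5, 342.5 and 291.1, a log2 fold change of 1.84 (SE 0.44, 95% interval 0.87 to 2.81, limma adjusted p = 0.0365). The groups again did not overlap, with each positive library above each negative one, as for 15.3% of tested genes. The call was lost after quantile normalization (adjusted p = 0.0599) and when any library other than kdrl positive replicate 3 was left out, with adjusted p of 0.0778 to 0.124.

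The other 4 genes were not called in the kdrl sort. Values of desmb were 49.4, 42.3 and 34.1 in positive and 83.8, 45.9 and 53.5 in negative libraries, which overlapped (log2 fold change -0.50, SE 0.47, limma adjusted p = 0.536). Values of barx1 were 101.7, 79.9 and 379.2 in positive and 418.4, 670.9 and 544.0 in negative libraries, all positive below all negative, as for 14.2% of tested genes. Its log2 fold change of -1.87 (SE 0.54, limma adjusted p = 0.0727) was called with the replicate block (adjusted p = 0.0333, where 6.41% of genes were called lower against 2.79% without the block) after quantile normalization (adjusted p = 0.0418) and without kdrl positive replicate 3, the highest of the positive libraries (-2.55, adjusted p = 0.00398).

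For nkx2.3, kdrl positive libraries had 246.5, 161.2 and 324.7 and kdrl negative libraries 94.5, 137.7 and 307.2 normalized read counts (log2 fold change 0.56, SE 0.48, limma adjusted p = 0.5). The positive library was the higher one in each of the 3 same-numbered pairs, and the limma fit with the replicate block gave an adjusted p of 0.291. For nkx3.3, 164.4, 31.4 and 168.0 stood against 51.1, 51.2 and 163.0 (0.34, SE 0.71, limma adjusted p = 0.791). Both genes were highest among negative libraries in kdrl negative replicate 3, in which the intestinal epithelium list summed to 11870 normalized read counts against 2664 and 4787 in the other kdrl negative libraries; the part of this in the values was not tested.

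A test of the difference between the acta2 and kdrl sort effects was called for desmb alone of the 6 genes, where 2.8% of 25490 genes were called higher and 3.31% lower. The acta2 effect of desmb exceeded its kdrl effect by 5.23 on the log2 scale (SE 0.74, 95% interval 3.65 to 6.81, limma adjusted p = 0.000729), and by 5.53 without acta2 positive replicate 2 (limma adjusted p = 0.000793). The difference was 1.09 for rbpms2a (95% interval -0.03 to 2.21, limma adjusted p = 0.246) and 0.24 for rbpms2b (95% interval -1.54 to 2.02, limma adjusted p = 0.904). Both intervals include 0, and that of rbpms2b leaves room for a larger effect in either sort. Stage, fixation and library kit differed between these lines and cannot be told apart from the cell type in such a difference.

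Other genes of gut smooth muscle development, 33 in the list and 31 tested in the acta2 line, rose in part with the acta2 sort. There 6 were higher and 0 were lower in limma (13 higher and 1 lower at an unadjusted p under 0.05, which 11.1% and 13.0% of all tested genes reached; 0 lower in edgeR and 1 in DESeq2), and the median log2 fold change was 0.80 against -0.06 over all tested genes. Among them were mkl2b, a myocardin-family coactivator gene (2.83, limma adjusted p = 0.00713), the homeobox gene tlx1, known from spleen development (3.23, limma adjusted p = 0.0131), tcf21, a factor of visceral and cardiac mesoderm (1.57, limma adjusted p = 0.0219), and sfrp1a, a secreted Wnt modulator (1.57, limma adjusted p = 0.0274). Of all tested genes 3.26% were called higher and 3.75% lower in limma. Leaving out acta2 positive replicate 2 gave 4 higher and 1 lower of 32, where 1.99% and 4.33% of all tested genes were called.

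The gut mesenchyme factor foxf1 had 10637, 4784 and 3215 normalized read counts in acta2 positive and 3792, 2046 and 3050 in acta2 negative libraries, which overlapped (log2 fold change 0.93, limma adjusted p = 0.246). In the acta2/foxc1b line it had 25323 and 35571 in positive against 1593, 533.4 and 1167 in negative libraries. It was not called there either (log2 fold change 4.91, limma adjusted p = 0.0707). Its log2 fold change over both lines was 2.92 (limma adjusted p = 0.00123). Over both lines the myocardin gene myocd was higher as well (5.06, limma adjusted p = 0.00886), whereas nkx3.2, a homeobox gene related to nkx3.3, did not pass (0.71, limma adjusted p = 0.348). In the single lines myocd did not pass, at 3.94 (limma adjusted p = 0.101) for acta2 and 6.18 (limma adjusted p = 0.14) for acta2/foxc1b. Its values were 331.5 to 774.2 in acta2 positive and 1.69 to 167.4 in acta2 negative libraries. It had 2 reads in acta2 negative replicate 3 and 1 read in acta2/foxc1b negative replicate 2, near the floor. In the acta2/foxc1b line alone, 0 of 32 tested genes of the list were called in limma, with a median of 1.88. There 0.0271% of all tested genes were called higher. In all, 12 of 33 genes of the list were higher and 0 lower in limma over both lines, where 4.68% and 4.62% of all tested genes were. At an unadjusted p under 0.05, 20 were higher and 1 lower, which 10.9% and 13.2% of all tested genes reached. Other lists had a larger share called higher in this fit than the 36.4% of the gut list. It was 83.3% of 12 vascular mural, 74.2% of 31 contractile, 50% of 14 heart muscle and 38.1% of 21 skeletal muscle genes. The contractile list includes acta2 itself, and 9.52% of the skeletal muscle genes were lower.

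The kdrl sort gave another picture of this list, with 4 of 33 genes higher, 6 lower and a median of -0.25. Of all tested genes 3.17% were called higher and 2.79% lower in this sort, with a median of -0.05. There foxf1 was lower, at 20.4 to 32.1 in positive against 125.6 to 210.3 in negative libraries (log2 fold change -2.76, limma adjusted p = 0.00664), as was sfrp1a (-2.13, limma adjusted p = 0.0105). Among the 4 higher were the homeobox gene hlx1 (4.33, limma adjusted p = 0.000833) and the zinc finger gene gata5 (2.72, limma adjusted p = 0.00874), both named after their values were seen. In the acta2 sort gata5 was called higher as well (1.89, limma adjusted p = 0.0404), and hlx1 was not called (0.37, limma adjusted p = 0.628).

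**Figure D3:**
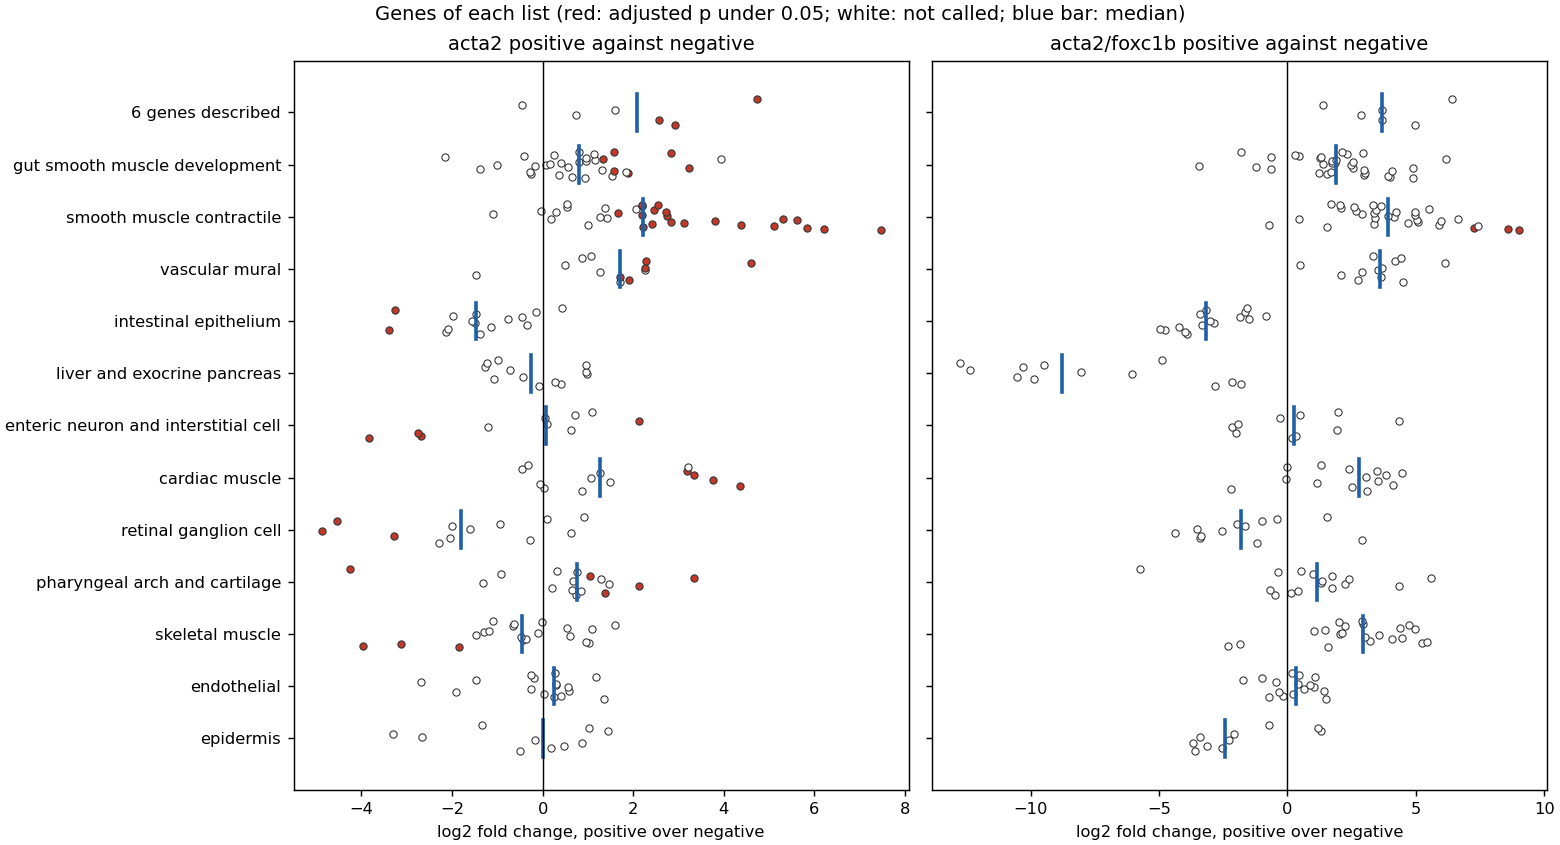
Log2 fold change, positive over negative cells, of each tested gene of 12 lists and of the 6 genes described, in the acta2 line (left) and the acta2/foxc1b line (right); red points passed an adjusted p under 0.05 and blue bars mark medians. In the acta2 line the contractile list, which includes acta2 itself, has a median of 2.23 and the skeletal muscle list one of -0.46. The skeletal muscle median is 2.93 in the acta2/foxc1b line.

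Contractile genes of smooth muscle were higher beside desmb and rbpms2a. Of 31 tested in the acta2 line, 20 were higher, with a median log2 fold change of 2.23, where 3.26% of all tested genes were called higher. The 20 include acta2 itself, whose promoter defined the sort. Also among them were cnn1b, a calponin gene (5.83, limma adjusted p = 0.000695), myh11a, a smooth muscle myosin gene (5.11, limma adjusted p = 0.00184), and myl9a, a myosin light chain gene (4.39, limma adjusted p = 0.00128). In the kdrl sort, 3 of 32 contractile genes were higher and 2 lower, where 3.17% and 2.79% of all tested genes were. Here myh11a (3.13, limma adjusted p = 0.000833) and myl9a (2.84, limma adjusted p = 0.0354) were among the higher ones. In the acta2 line vascular mural genes were higher in 5 of 12, with a median of 1.72, where 3.26% of all tested genes were higher. Examples were notch3 (1.90, limma adjusted p = 0.00635), the Notch receptor gene of mural cells, and cd248a (2.28, limma adjusted p = 0.00777). Without acta2 positive replicate 2, 18 contractile and 4 mural genes were higher, where 1.99% of all tested genes were. In the acta2/foxc1b line, 3 of 31 contractile genes, acta2 among them, and 0 of 12 mural genes were higher in limma. Their medians were 3.94 and 3.59, and 0.0271% of all tested genes were called higher there. The acta2 positive cells held higher levels of genes of both visceral and vascular lists, and in whole-population libraries these values do not say whether the same cells carried them.

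Some heart muscle genes were higher in acta2 positive cells. Of 13 tested, 4 were higher (median 1.26), where 3.26% of all tested genes were. Without acta2 positive replicate 2, 3 of 14 were higher, where 1.99% of all tested genes were. The 4 of the main fit were tbx20 (3.18, limma adjusted p = 0.00389), the heart myosin light chain gene myl7 (4.37, limma adjusted p = 0.0079), tnnt2a (3.35, limma adjusted p = 0.0115) and nppa (3.76, limma adjusted p = 0.0311). The 9 not called ran from actc1a (-0.46) to cmlc1 (3.22), with the defining gene nkx2.5 at 0.88 (limma adjusted p = 0.406) and myh6 at -0.05 (limma adjusted p = 0.988). In the acta2/foxc1b line 0 of 14 were called in limma, with a median of 2.78, where 0.0271% of all tested genes were called higher. The level of myl7 was 88.3 to 198.3 normalized read counts in acta2 positive and 4.2 to 10.1 in acta2 negative libraries, and the whole list summed to 6442 to 7090 and 3160 to 6759. In the kdrl sort, where both rbpms2 genes were higher as well, 3 of 14 heart genes were lower, against 2.79% of all tested genes. The median of the heart list was -0.72 there, and myl7 did not pass (-0.27, limma adjusted p = 0.852). The part of heart cells in the rbpms2 values of the acta2 lines was not tested.

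Of 12 retinal ganglion cell genes, where rbpms2 is also known, 3 were lower in acta2 positive cells with or without acta2 positive replicate 2 (median -1.80). Of all tested genes 3.75% were lower with that library and 4.33% without it. Examples were eomesa (-4.88, limma adjusted p = 0.0209) and pou4f2 (-3.29, limma adjusted p = 0.0283). The defining gene isl2b did not pass (-0.29, limma adjusted p = 0.727). Values above 0, none called, were those of alcama (0.92), gap43 (0.62) and robo2 (0.09). In the acta2/foxc1b line 0 of 12 were called and the median was -1.80, with isl2b at 2.89 (limma adjusted p = 0.409). The mean of this list on the scale of log2(normalized read count + 1) was 4.8 to 5.8 in acta2 positive and 6.4 to 7.3 in acta2 negative libraries. Its sum, in which abundant genes weigh most, went the other way, at 7407 to 9137 and 5430 to 6983 normalized read counts. The part of these genes in the rbpms2 values was not tested. In the kdrl sort the median of this list was -1.13.

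Skeletal muscle genes had high levels in the positive libraries of the acta2/foxc1b line. The list summed to 232398 and 459261 normalized read counts in acta2/foxc1b positive against 15276 to 41823 in negative libraries, with a median log2 fold change of 2.93 over 21 genes. None of them was called in limma or edgeR in the positive against negative comparison of this line. At an unadjusted limma p under 0.05, 16 were higher and 1 lower, which 5.51% and 5.94% of all tested genes reached. DESeq2 called 12 higher, where it called 2.91% of all tested genes higher, and 1 lower. In the acta2 line the list summed to 21774 to 44564 in positive against 29838 to 49177 in negative libraries. There 3 of 20 genes were lower (median -0.46), where 3.75% of all tested genes were. Without acta2/foxc1b negative replicate 2, 12 of the 21 were higher and 1 was lower in the acta2/foxc1b line, where 1.55% and 2.03% of all tested genes were. In acta2/foxc1b positive set directly against acta2 positive cells, 5 of the 21 were higher and 0 lower in limma. Of all tested genes 0.166% and 0.0299% were. Over both acta2 lines, 8 of the 21 were higher and 2 lower in limma, where 4.68% and 4.62% of all tested genes were. The desmin copy desma, known from skeletal muscle, had 2372 and 2396 in acta2/foxc1b positive against 246.1, 673.3 and 194.1 in negative libraries (log2 fold change 2.90, limma adjusted p = 0.175). The part of skeletal muscle RNA in the desmb values of this line was not tested.

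Lists of other cell types of the gut were read beside those of gut muscle. In the acta2 line 3.26% of all tested genes were called higher and 3.75% lower, or 1.99% and 4.33% without acta2 positive replicate 2. Of 15 intestinal epithelium genes in the acta2 line, 2 were lower and the median was -1.47. These were agr2 (-3.25, limma adjusted p = 0.00465) and the bile acid binding protein gene fabp6 (-3.40, limma adjusted p = 0.0079). Without acta2 positive replicate 2, 6 were lower and the median was -2.71. The defining gene fabp2 did not pass in the full fit (-1.39, limma adjusted p = 0.405). It had 82.9, 878.5 and 43.0 normalized read counts in acta2 positive and 289.4, 476.5 and 421.3 in acta2 negative libraries. Of 10 enteric neuron and interstitial cell genes, 3 were lower, the neuronal homeobox genes phox2bb (-3.83, limma adjusted p = 0.0189) and phox2a (-2.69, limma adjusted p = 0.0147) and the receptor gene ret (-2.75, limma adjusted p = 0.0434), and hand2, a factor of gut mesoderm and enteric neurons, was higher (2.13, limma adjusted p = 0.018). In the acta2/foxc1b line the medians of the intestinal epithelium list and of the liver and exocrine pancreas list were -3.16 and -8.76. Without negative replicate 2 they were -1.97 and -6.84. The enteric neuron and interstitial cell list had a median of 0.24 in the full fit of that line. The median of the endothelial list was 0.26 for the acta2 sort and 4.70 for the kdrl sort. All its 16 tested genes, the reporter gene kdrl itself among them, were higher in the kdrl sort, where 3.17% of all tested genes were. The epidermis list had medians of 0.01 (-1.01 without acta2 positive replicate 2) and 1.97, with 4 of 10 higher in the kdrl line. The liver and exocrine pancreas list was also higher in part in kdrl positive cells, with 3 of 12 higher, a median of 2.68 and sums of 6860 to 16054 normalized read counts against 803 to 5473. Among these was the liver gene fabp10a (2.998, limma adjusted p = 0.0182), and the part of such cells in the kdrl values of the rbpms2 genes was not tested.

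**Figure D4:**
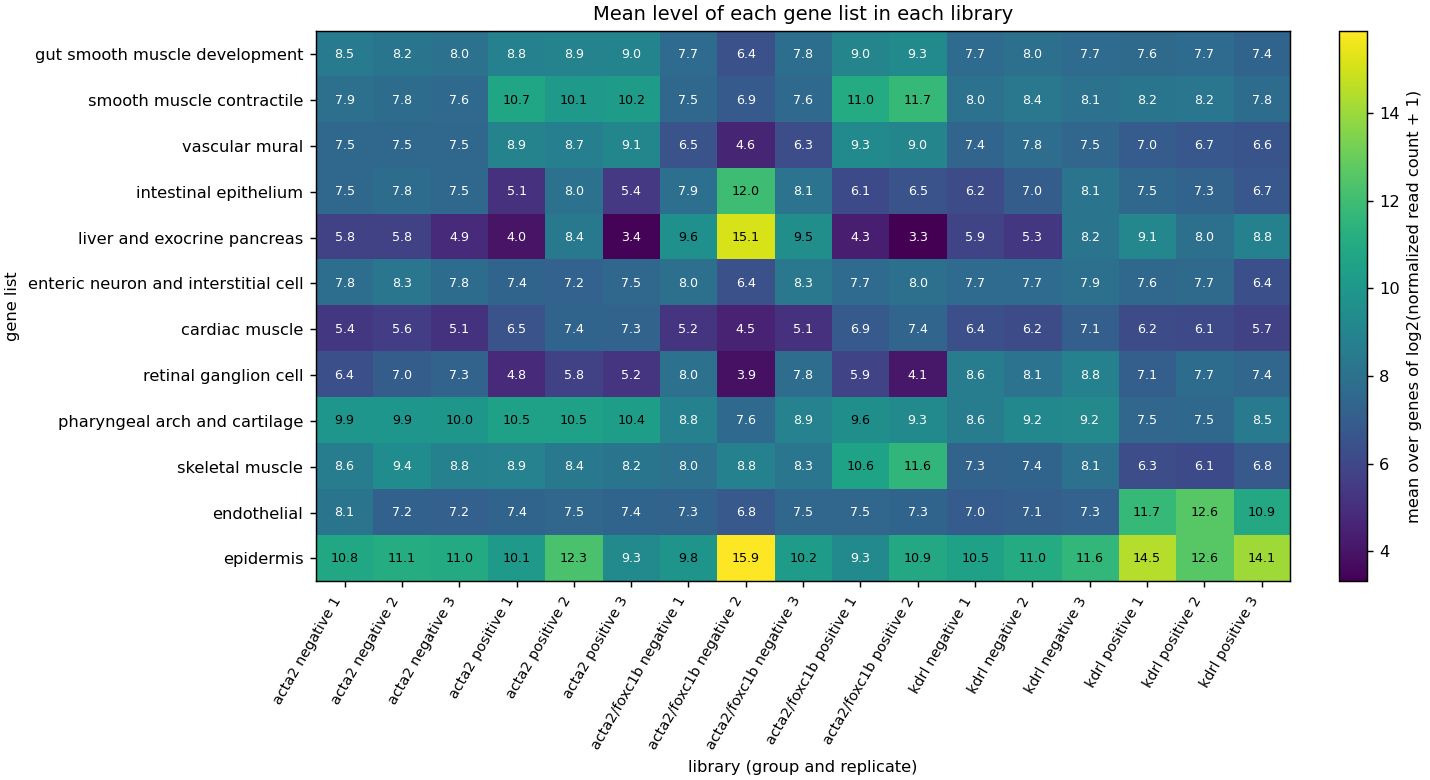
Mean over genes of log2(normalized read count + 1) for 12 gene lists (rows) in each library (columns, group and replicate). The liver and exocrine pancreas list stands at 15.1 in acta2/foxc1b negative replicate 2 against 9.6 and 9.5 in its replicates, and the skeletal muscle list is highest in the acta2/foxc1b positive libraries, at 10.6 and 11.6.

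The 6 genes were compared in pattern over the 11 libraries of both acta2 lines, on the scale of log2(normalized read count + 1), as a description of libraries that share a sort and a scaling. Values of rbpms2a and desmb ran closest together, with a Pearson r of 0.958, followed by rbpms2b and nkx3.3 at 0.888 and rbpms2a and nkx3.3 at 0.881. The r of barx1 with the other 5 genes lay between 0.286 and 0.525. After the mean of each group was taken off, the order changed. The deviations of rbpms2b then ran with those of barx1 (0.831) and nkx3.3 (0.66), and those of rbpms2a and desmb were opposed (-0.596). In acta2 negative replicate 1, each of the 6 genes had its highest value of that group. In acta2/foxc1b negative replicate 2, a library that stood apart, rbpms2b (227.7) and barx1 (470.0) had their lowest values of that group. The part of single libraries in these r values was not tested.

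Among 11220 genes with a mean of at least 100, the genes nearest in pattern differed between the 6. For desmb they were contractile genes, tagln (r of 0.985), cnn1b (0.978) and tpm1 (0.977), which encode transgelin, calponin and a tropomyosin. For rbpms2a they were tln1, a talin gene (0.986), actn1, an alpha-actinin gene (0.984), and acta2 itself (0.983). For rbpms2b they were tmem88b (0.983), sh3bgrl (0.963) and specc1la (0.962), and tmem88b was also higher in the kdrl sort (log2 fold change 3.74, limma adjusted p = 0.00317), as was tln1 (1.79, limma adjusted p = 0.0165).

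For nkx3.3 the nearest genes were prkceb (0.947), cemip (0.944) and parvab (0.941), for nkx2.3 fbln1, a fibulin gene of extracellular matrix (0.929), me2 (0.916) and vclb, a vinculin gene (0.911), and for barx1 fstl3 (0.965), mmp16a (0.954) and dzip1 (0.953). Of these, parvab, a parvin gene of cell adhesions, was higher in both the acta2 (2.45, limma adjusted p = 0.00635) and the kdrl sort (3.38, limma adjusted p = 0.00665), and fstl3, nearest to barx1, was lower in the kdrl sort (-4.02, limma adjusted p = 0.00469). Over the 8 libraries that remain without the acta2 negative group, tln1 was still nearest to rbpms2a (0.995), whereas dzip1 fell to rank 82 for barx1. No r was taken without acta2/foxc1b negative replicate 2, in which barx1 was at 470.0 against 2154 and 2792 in its replicates. The lowest values of fstl3, mmp16a and dzip1 in that group were 99.2, 434 and 102, against medians of 1599, 2515 and 695. How far these r values rest on that library was not tested.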

How the data were processed

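RNA of cells sorted from 3 zebrafish lines was sequenced in 17 libraries, with oligo dT primed, REPLI-g amplified cDNA for the acta2 lines and the TotalScript kit for fixed kdrl cells, per the labels' protocols. The submitters' processing notes name bcl2fastq 2.14, CASAVA 1.8.2, featureCounts 1.5.2, DESeq2 1.20.0 and build GRCz11; no aligner or annotation is named in these sources (not given in the sources used here). The authors deposited a signal per gene and library, a read count divided by a size factor, with the kdrl libraries scaled apart; 100% of values gave back whole reads within 0.1 read. For each line the table also holds the authors' log2 fold change and adjusted p-value. Samples were grouped by title.

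Here a gene entered a test if it reached a value of 10 in at least as many libraries as the smallest group held. The test was limma-trend, two-sided, with a pseudocount of 1 before the log2, Benjamini-Hochberg adjusted over all genes, with calls at under 0.05; fold changes are on that scale and understate changes of low genes. A count test was not the main test because the values are normalized. DESeq2 1.42.0, edgeR 4.0.16 and limma 3.58.1 ran under R 4.3.3. Fits of the acta2 lines were also run on simulated counts, with the same spread for all genes and no library that stood apart. Because the real libraries include such a library in each acta2 line, the simulation cannot decide how far the calls there hold. Alternatives were a pseudocount of 10, no filter, edgeR and DESeq2 on recovered reads, quantile normalization, a replicate block and leaving out each library. Same-numbered kdrl libraries deviated together across genes, with r of 0.475, 0.128 and 0.422, a pairing read from the data, and those of the acta2 line did not (0.00968, -0.0225 and -0.0137).

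The 6 genes and the 12 lists were chosen with earlier results of these data known. Of each list, the genes named are up to 4 called ones per direction in the acta2 line, or up to 2 with the smallest p, plus reporters, defining genes and, for each of the 6, the 3 nearest genes by Pearson r. All 6 symbols matched RefSeq. Amplified reads without molecular identifiers are not independent molecules.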

Additional observations from a re-analysis of the deposited data

Results flagged for a closer look

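The desmin gene desmb was marked because its sort effect differed between the acta2 and kdrl lines by a test of the difference itself. The acta2 effect minus the kdrl effect was 5.229 on the log2 scale (SE 0.74, limma adjusted p = 0.000729). It came from log2 fold changes of 4.73 within the acta2 line and -0.50 within the kdrl line. It kept its call in all 18 alternatives, with differences of 4.62 to 5.54. Groups held 2 or 3 libraries, too few for a test of a single library against its replicates.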

How the results depend on the processing

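The number of called genes depended on the tool. DESeq2 called 2933 genes in the acta2 line (main limma count 1441), 1692 in the acta2/foxc1b line (6), 3164 in the kdrl line (1485), 4221 over both acta2 lines (2178), 233 for the difference between these lines (0), 439 between their positive cells (46) and 3034 for acta2 minus kdrl (1558); the cause was not tested. In the acta2/foxc1b line the count was 11 with a pseudocount of 10, 11 with no filter, 0 in edgeR, 94 after quantile normalization and 280 with the replicate block. The block gave 3359 calls in the kdrl line and 1442 over both acta2 lines, and quantile normalization gave 15 for the difference between these lines. No paired analysis was possible between the positive cells of the lines because numbers are shared within a line only. In the acta2/foxc1b line, 2 pairs at r of 0.144 and 0.0559 were too few to decide on pairing; with the block, rbpms2a (adjusted p = 0.00669) and desmb (adjusted p = 0.0191) were called there. Beyond these and barx1 in the kdrl line, the replicate block changed no call of the 6 genes.

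Leaving out each library gave 285 to 1355 calls in the acta2 line, 0 to 774 in the acta2/foxc1b line, 552 to 1512 in the kdrl line, 832 to 3980 over both acta2 lines, 0 to 54 for their difference, 0 to 156 between their positive cells and 937 to 1774 for acta2 minus kdrl. Over the 6 genes, 568 values kept direction and side of the threshold, 15 lost a call, 20 gained one and 15, none of them called, changed sign. For acta2 minus kdrl, rbpms2b (main 0.24) turned to -0.12 in edgeR, -0.024 in DESeq2 and -0.0045 after quantile normalization. With 1 library left out, this difference ran from -0.38 to 0.96 for rbpms2b and from -0.50 to 0.62 for nkx2.3. Likewise barx1 ran from -0.85 to 0.097 in the acta2 line, nkx3.3 from -0.061 to 1.13 in the kdrl line, and rbpms2b from -2.54 to 0.30 for the difference between the acta2 lines and from -0.71 to 2.12 between their positive cells.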
